A study of Arabidopsis thaliana with 18 samples.

Results

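Etiolated seedlings of the Arabidopsis mutant jmj17-1 were compared with wild type before any light was given, on 6 of the 18 arrays of the series. Both groups had spent 4 days in the dark on 1/2MS plates without sucrose: jmj17-1 in the Col-0 background (n = 3 arrays) and wild-type Col-0 (n = 3 arrays). The other 12 arrays hold both genotypes after 2, 4 or 8 h of light that followed the dark, 2 arrays a group. Total RNA of whole seedlings was hybridised to the Affymetrix ATH1 array, and the arrays were assigned by title. The labels name 1 mutant allele without describing its lesion. Nothing in them tells if the replicates grew as separate cultures. The spread within groups was pooled over all 18 arrays, light arrays included. A p-value here thus covers that pooled spread alone, and it could be technical. In whole seedlings, fewer cells of a type and less RNA per cell cannot be told apart.

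JMJ17 is a JmjC-domain demethylase that removes methyl groups from lysine 4 of histone H3, a mark of active genes. A seedling in the dark lengthens its hypocotyl, keeps its cotyledons closed and holds its plastids as etioplasts, with a store of protochlorophyllide that the light-dependent POR enzymes turn over once light arrives. Genes of chlorophyll synthesis, antenna and photosystems are kept low by PIF factors and by the COP1/SPA ubiquitin ligase, which degrades the light-response factors HY5 and HYH. The comparison asks which transcripts already depended on the genotype at that stage. JMJ17 itself had no probe set in the deposited table, so the mutation could not be checked on these arrays.

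The deposited table holds 6847 probe sets. Their RMA intensities were taken on the log2 scale, and differences are jmj17-1 minus wild type on that log2 scale, with SE. The threshold for a call was an adjusted p of 0.05 (limma, Benjamini-Hochberg over the 6847). Median intensity per array was 144 to 161. The authors' fold change is headed jmj17-1 against wild type in the dark, but the comparison that selected their list is not named. Each listed probe set differed in the mutant between 2 h of light and dark (limma, highest unadjusted p 0.0237). The list is therefore not independent of the dark mutant arrays. Mutant replicate 2 stood apart: it correlated at 0.985 with each of the other mutant dark arrays, which correlated at 0.995 with each other, while wild-type dark arrays correlated at 0.996 to 0.997. Results of the dark comparison are therefore given with that array and, for the calls and lists described, also without it.

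Before light, jmj17-1 seedlings had lower levels of named stress, defence and jasmonate genes, among them AT4G36430, ECS1 and JAZ10. With all arrays 42 probe sets rose (0.613 percent) and 81 fell (1.18 percent), 1.8 percent of those tested. Without mutant replicate 2, 8 rose (0.117 percent) and 41 fell (0.599 percent), 0.716 percent in all. Both fits shared 41 probe sets, 7 that rose and 34 that fell, which is 33.3 percent of the calls with all arrays and 83.7 percent of those without replicate 2. All 123 calls had the same sign without that array. Median centring gave 25 rises and 107 falls. With the spread of the 6 dark arrays alone, 13 probe sets passed, 2 rises and 11 falls. The count was 44, 47 and 24 when wild-type replicate 1, 2 or 3 was left out, always with more falls than rises. It was 445 (247 rises, 198 falls) without mutant replicate 1 and 264 (148 rises, 116 falls) without mutant replicate 3, so the excess of falls turned there. The median of all probe sets was 0.02 in both fits.

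The groups did not overlap for any of the 123 called probe sets, but of all probe sets 14.2 percent also had 3 mutant arrays above and 9.8 percent had 3 mutant arrays below the wild-type arrays. Replicate 2 was the highest mutant array for 32 of the 42 rises and the lowest for 43 of the 81 falls. Over all probe sets with a positive difference it was the highest for 56.5 percent, and over those with a negative difference the lowest for 56.6 percent. In each of the 6 fits that left out 1 dark array, 20 of the 123 passed again, 1 rise and 19 falls.

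The largest fall was in AT4G36430, a class III peroxidase gene whose product acts in the cell wall. Its log2 intensities were 7.75, 7.80 and 7.49 in jmj17-1, against 10.02, 9.71 and 9.96 in wild type. The brightest mutant array lay far below the dimmest wild-type array, a difference of -2.21 ± 0.18 (limma adjusted p = 8.13e-06), or -2.27 without replicate 2. A probe set shared by the peroxidase loci AT2G18140 and AT2G18150 showed 5.22, 5.14 and 4.94 in the mutant, against 6.84, 6.85 and 7.07 in wild type. It too fell well clear of the spread, at -1.82 ± 0.14 (limma adjusted p = 4.15e-06), or -1.84 without replicate 2, and it cannot tell its loci apart. Among 37 genes with the deposited ontology term for peroxidase activity, AT4G36430 was the single call, where 1.18 percent of all probe sets fell. Of the 37, 18 were above 0, against 55.8 percent of all probe sets, and the median was -0.01. Without replicate 2, 13 were above 0 and the median was -0.04.

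AT1G50410 encodes a chromatin remodelling protein of the SNF2 type. It had 4.17, 3.79 and 3.72 in jmj17-1, against 5.61, 5.80 and 5.90 in wild type, a fall of 1.87 ± 0.12 (limma adjusted p = 7.25e-07), and of 1.82 without replicate 2. The groups lay far apart, although the mutant mean was among the dimmest probe sets, with 4.53 percent dimmer, so the exact size is not established.

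**Figure D1:**
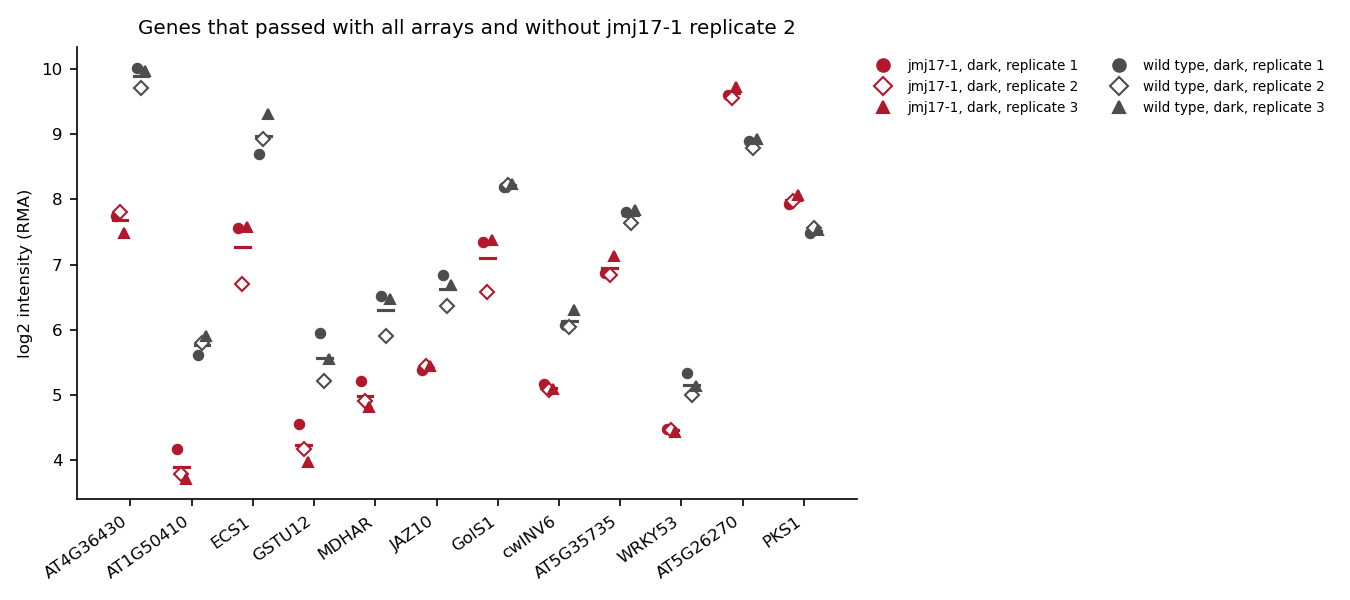
Log2 RMA intensity of 12 genes in the dark arrays, jmj17-1 in red left of wild type in grey. Each symbol is 1 array, open diamonds are replicate 2 of either genotype, and the bar is the mean of 3 arrays. In each gene shown the groups do not overlap, and AT5G26270 and PKS1 are the genes with higher mutant values.

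MDHAR, whose enzyme regenerates ascorbate, had 5.22, 4.91 and 4.82 in the mutant, against 6.52, 5.90 and 6.48 in wild type (-1.32 ± 0.16, limma adjusted p = 0.000687; -1.28 without replicate 2). GSTU12, a glutathione transferase gene, had 4.56, 4.18 and 3.98, against 5.95, 5.22 and 5.56 in wild type (-1.34 ± 0.18, limma adjusted p = 0.00111; -1.31 without replicate 2). In both genes every mutant array was under every wild-type array, and both passed in each fit that left out 1 dark array. Of 17 glutathione transferase genes GSTU12 alone passed, where 1.18 percent of all probe sets fell. Of the 17, 3 were above 0, against 55.8 percent of all probe sets, and the family median was -0.12. Without replicate 2, 8 were above 0 and the median was -0.04. Of 45 cytochrome P450 genes, CYP81D8 (-0.91 ± 0.19, limma adjusted p = 0.0317) and CYP81D1 (-0.87 ± 0.18, limma adjusted p = 0.0317), both of a family tied to stress responses, fell, and neither passed without replicate 2 (-0.89 and -0.64, adjusted p = 0.0666 and 0.0693). Those 2 falls of 45 stand beside the 1.18 percent of all probe sets that fell. The mutant mean of CYP81D8 was dim, with 4.6 percent of probe sets below it, so the exact size is not established.

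ECS1, a cell wall protein gene linked to defence, had 7.56, 6.70 and 7.57 in jmj17-1, against 8.69, 8.92 and 9.31 in wild type. The fall of 1.69 ± 0.19 (limma adjusted p = 0.000209) became 1.41 without replicate 2, its lowest array, and still passed (adjusted p = 3.28e-05). GolS1, for the first enzyme of raffinose family sugars, had 7.34, 6.58 and 7.38, against 8.19, 8.22 and 8.23 in wild type. Its difference was -1.11 ± 0.18, and -0.86 without replicate 2 (limma adjusted p = 0.00739 and 0.00426). cwINV6, of the cell wall invertase family, was tight within both groups: 5.17, 5.08 and 5.09 in the mutant, against 6.08, 6.05 and 6.30 in wild type (-1.03 ± 0.11, limma adjusted p = 0.000105; -1.01 without replicate 2). The protease inhibitor gene AT2G38870 (-0.78 ± 0.11, limma adjusted p = 0.00245) and AT5G35735 (-0.81 ± 0.08, limma adjusted p = 0.000105) also passed in each such fit. AT4G11190, a dirigent protein gene, fell by 1.73 ± 0.30 (limma adjusted p = 0.00948), and was at -1.95 without replicate 2, with 6.78, 7.76 and 7.44 in the mutant, against 9.33, 8.61 and 9.25 in wild type.

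All 9 measured jasmonate genes, from 27 listed, had lower means in the mutant. JAZ10, a repressor that jasmonate itself induces, had 5.38, 5.44 and 5.45 in jmj17-1, against 6.84, 6.37 and 6.69 in wild type. The mutant arrays lay within 0.07 of each other and under every wild-type array, with a difference of -1.21 ± 0.12 (limma adjusted p = 5.97e-05), and -1.21 ± 0.13 without replicate 2 (adjusted p = 0.000139). JAZ1, another repressor (-0.76 ± 0.14, limma adjusted p = 0.0212), and AOC3, for allene oxide cyclase of jasmonate synthesis (-0.65 ± 0.13, limma adjusted p = 0.0215), fell with all arrays but not without replicate 2 (adjusted p = 0.0614 and 0.0501). In all, 3 of the 9 measured members fell and 0 rose, where 1.18 percent of all probe sets fell. All 9 were below 0 in both fits and under both other scalings tried, with a median of -0.31, or -0.28 without replicate 2, where 44.2 percent of all probe sets were below 0. The members that did not pass were JAZ9 at -0.33, JAZ3 at -0.31, the activator MYC2 at -0.27, JAZ6 at -0.23, the receptor COI1 at -0.21 and JAZ5 at -0.19.

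Of 17 WRKY factors, which regulate defence and senescence, 2 fell and 0 rose in both fits. Of all probe sets 1.18 percent fell, and 0.599 percent without replicate 2. WRKY53 had 4.48, 4.47 and 4.44 in the mutant, against 5.34, 5.0 and 5.14 in wild type (-0.70 ± 0.09, limma adjusted p = 0.00125). WRKY46 had 4.58, 4.78 and 4.66, against 5.14, 5.08 and 5.04 in wild type (-0.42 ± 0.08, limma adjusted p = 0.021). Both genes had mutant arrays that were all under the wild-type arrays, and both were slightly lower or equal without replicate 2, at -0.70 and -0.47. The family median was -0.20, and -0.13 without replicate 2. Of 4 measured salicylic acid and defence genes WRKY53 was the call in both fits. Their median was 0.08 with 2 above 0, and it turned to -0.08 with 1 above 0 without replicate 2.

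Markers of singlet oxygen and mitochondrial stress were below 0 in all 18 measured cases, with a median of -0.38, where 44.2 percent of all probe sets were below 0. Of the 18, 3 fell, where 1.18 percent of all probe sets did. The list overlaps the families above, since it also holds CYP81D8, WRKY6, WRKY33 and WRKY40. OM66, for an ATPase of the outer mitochondrial membrane, had 3.91, 3.99 and 3.6 in jmj17-1, against 4.76, 4.77 and 4.93 in wild type (-0.99 ± 0.16, limma adjusted p = 0.00844), with a mutant mean that only 4.22 percent of probe sets undercut. CYP81D8 and AOX1A, the alternative oxidase gene (-0.53 ± 0.12, limma adjusted p = 0.0437; -0.39 without replicate 2), were the other calls. Without replicate 2, OM66 alone passed (-1.06, adjusted p = 0.00783), 16 of 18 were below 0 and the median was -0.18. ZAT10, a zinc finger factor gene, was at -0.74 and -0.48 in these fits, and ERF6, an ethylene response factor gene, at -0.46 and -0.36, neither past the threshold.

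Heat shock genes had a median of -0.28, and -0.19 without replicate 2. Of 15, HSP90.1, for a cytosolic chaperone, fell (-0.75 ± 0.15, limma adjusted p = 0.0264), and not without replicate 2 (-0.61, adjusted p = 0.0754). Of all probe sets 1.18 percent fell. Of 14 genes of indole glucosinolates and tryptophan 0 passed and 12 were below 0, where 44.2 percent of all probe sets were. Their median was -0.17, or -0.20 without replicate 2, with CYP81F4 at -0.65 ± 0.18 (limma adjusted p = 0.0737), and -0.60 without replicate 2. The deposited ontology terms, looked up after the calls were known, place 22 of the 63 annotated falls under defense response, or 34.9 percent, where 9.1 percent of 5735 annotated probe sets carry that term. Without replicate 2 it was 12 of 35. Terms for jasmonic acid were carried by 11 of the 63 falls and by 4.2 percent of annotated probe sets, and those for salicylic acid by 13 and 3.7 percent. Of 30 annotated rises, 1 was under defense response.

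AT5G26270, predicted to encode a membrane protein whose function is not known, gave the clearest rise. It had 9.60, 9.56 and 9.72 in jmj17-1, against 8.90, 8.78 and 8.93 in wild type, a difference of 0.76 ± 0.08 (limma adjusted p = 0.000143), or 0.79 without replicate 2. It was the 1 rise that passed in every fit leaving out a dark array. ATMYC1, a bHLH factor gene, rose by 0.60 ± 0.10 (limma adjusted p = 0.00948), with 4.71, 4.95 and 4.62 in the mutant, against 4.33, 4.08 and 4.08 in wild type, and passed without replicate 2 (0.50, adjusted p = 0.0278). AT2G46420 rose by 0.65 ± 0.12 (limma adjusted p = 0.0129) and passed without replicate 2 as well (0.52, adjusted p = 0.0309).

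The other rises that passed in both fits were PKS1, described with the light signalling genes, LUP1, for lupeol synthase, AT1G12070 and a probe set shared by AT2G19850, AT3G54730 and OFP9. The remaining 35 of the 42 passed only with replicate 2. MUB5, for a membrane-anchored ubiquitin-fold protein, rose by 0.61 ± 0.14 (limma adjusted p = 0.0425, and 0.123 without replicate 2). The auxin response factor gene ARF11 rose by 0.52 ± 0.12 (limma adjusted p = 0.0437, and 0.0966 without it). LUT2, the lycopene cyclase gene of the lutein branch, had 7.22, 7.73 and 7.03 in the mutant, against 6.77, 6.71 and 6.80 in wild type. Its values did not overlap between groups, with replicate 2 the highest, and the difference was 0.57 ± 0.13, or 0.37 without that array (limma adjusted p = 0.0437 and 0.0841). It was the single call among 14 carotenoid genes, whose median was 0.16, and 0.05 without replicate 2. Of all probe sets 0.613 percent rose.

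Most photoreceptor and light signalling genes had slightly higher means in the mutant. Of 22, 20 were above 0 in both fits, against 55.8 percent of all probe sets, and the median was 0.16, or 0.18 without replicate 2. After median centring 17 of 22 were above 0, against 46.0 percent of all probe sets. PKS1, a substrate of phytochrome kinase activity that acts in phototropism, rose: 7.93, 7.97 and 8.07 in jmj17-1, against 7.48, 7.56 and 7.53 in wild type (0.47 ± 0.09, limma adjusted p = 0.0217, and 0.0424 without replicate 2). The 3 mutant arrays lay together above the 3 wild-type arrays. The others did not pass, among them FHL, of phytochrome A import (0.36 ± 0.09, and 0.36 without replicate 2), the blue light receptor gene PHOT1 (0.38 ± 0.10, and 0.27) and HY5 (0.42 ± 0.13, and 0.33). HY5 had 7.91, 8.06 and 7.63 in the mutant, against 7.32, 7.58 and 7.45 in wild type, so its groups were apart by a small margin. COP1 was at 0.04 and SPA1 at 0.19, or 0.05 and 0.22 without replicate 2.

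Among histone lysine demethylases, 1 of 6 measured genes rose, where 0.613 percent of all probe sets did. AT5G46910, which encodes JMJ13, a demethylase of lysine 27 of histone H3, had 6.90, 6.94 and 6.96 in the mutant, against 6.55, 6.51 and 6.5 in wild type. Both groups were tight and apart. The difference was 0.42 ± 0.09 (limma adjusted p = 0.0273), and 0.41 without replicate 2, where it did not pass (adjusted p = 0.0614). The others ranged from JMJ20 at -0.03 to AT1G11950 at 0.23, and these 2 were at 0.08 and 0.18 without replicate 2. The range without it was from LDL1 at -0.08 to JMJ30 at 0.24. The lysine methyltransferase genes ATX1 and ATXR7 were at 0.11 and 0.21, or 0.14 and 0.19 without replicate 2, and did not pass.

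Counts of calls among hormone and growth genes stand beside 1.8 percent of all probe sets with all arrays, and 0.716 percent without replicate 2. Gibberellin genes gave 1 call among 17 in both fits. GA2OX2, whose enzyme inactivates gibberellin, fell by 0.55 ± 0.11 (limma adjusted p = 0.0217), and by 0.55 ± 0.12 without replicate 2 (adjusted p = 0.0424), with 6.74, 6.71 and 6.63 in jmj17-1, against 7.25, 7.22 and 7.25 in wild type. The spread within each group was much smaller than that difference. The synthesis gene GA3OX1 was at 0.43 ± 0.13 (limma adjusted p = 0.0886), and 0.42 without replicate 2, and the 17 gibberellin genes had a median of 0.07, or 0.03 without it. Of 16 AUX/IAA repressors 13 were above 0 in both fits, with 0 calls and a median of 0.12, where 55.8 percent of all probe sets were above 0. After median centring 11 of 16 were above 0 with a median of 0.08, against 46.0 percent of all probe sets. Of 27 expansin and XTH genes, which loosen and remodel the wall, 0 passed and the median was 0.12, or 0.06 without replicate 2. The clock gene GI fell by 0.40 ± 0.09 (limma adjusted p = 0.042), and not without replicate 2 (-0.30, adjusted p = 0.123). With all arrays it was the 1 call among 13 clock genes. Of 24 dark and sugar starvation genes 0 passed in either fit; 10 were above 0 with a median of -0.02, and 17 with a median of 0.04 without replicate 2.

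**Figure D2:**
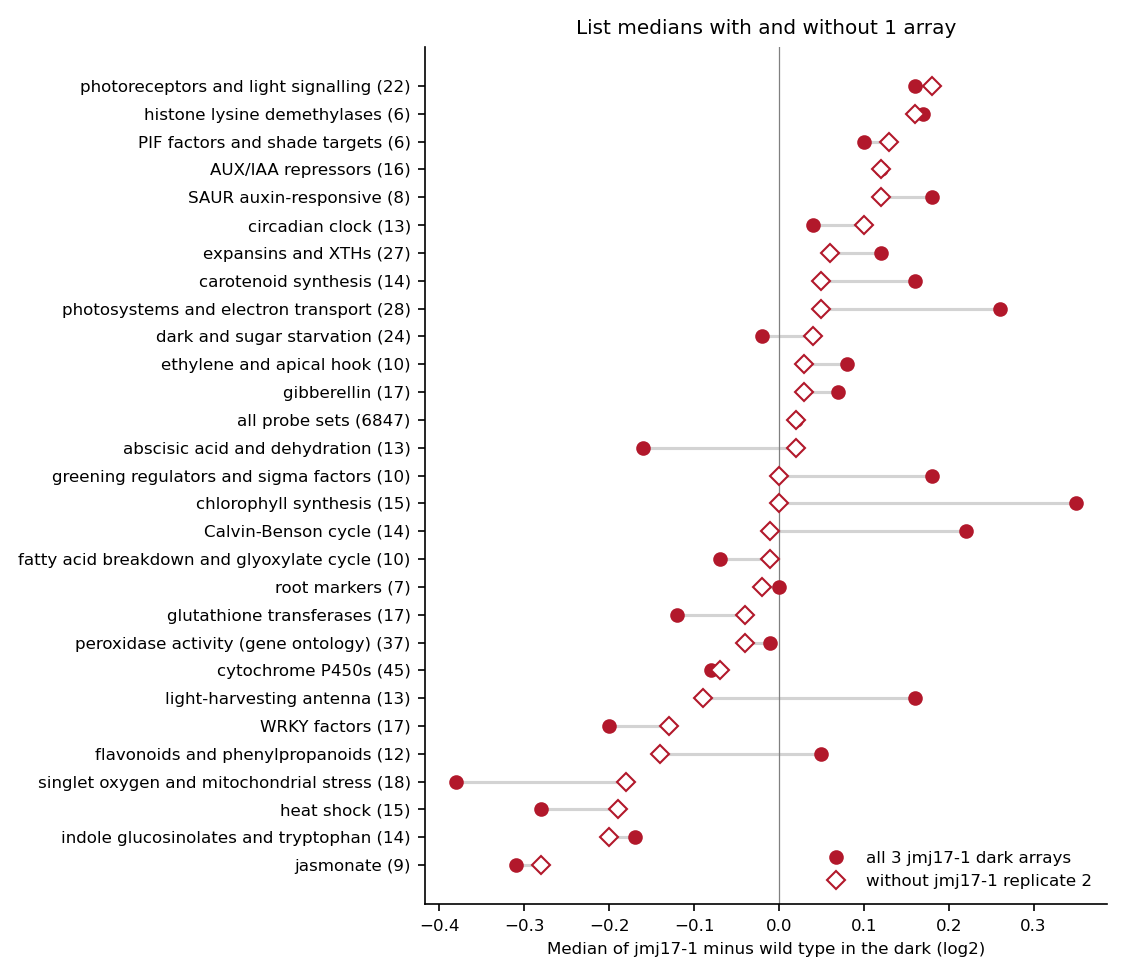
Median log2 difference, jmj17-1 minus wild type in the dark, of each gene list or family with at least 6 measured genes (number in brackets) and of all probe sets. Filled circles use all 3 mutant arrays and open diamonds leave out mutant replicate 2. The chlorophyll synthesis median is 0.35 with all arrays and 0.00 without replicate 2, while the jasmonate median is -0.31 and -0.28.

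Genes of greening behaved differently, since their difference rested on mutant replicate 2. Of 15 chlorophyll synthesis genes 0 passed. All 15 were above 0 with all arrays, at a median of 0.35, and 7 of 15 without that array, at 0.00. PORC had 5.57, 7.86 and 6.01 in jmj17-1, against 5.90, 5.66 and 5.74 in wild type. CHLH, for the large subunit of magnesium chelatase, had 8.53, 10.08 and 8.38, against 8.45, 8.58 and 8.58 in wild type. GUN4, the chelatase's activator, had 8.26, 9.75 and 8.26, against 7.96, 8.21 and 8.23 in wild type. In all 3 genes replicate 2 was far above every other dark array, while replicates 1 and 3 lay close to wild type.

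The same held for PORA, with 9.57, 11.03 and 9.71 in the mutant, against 9.82, 9.70 and 9.74 in wild type. PORB had 10.38, 11.49 and 10.33, against 10.41, 10.34 and 10.35 in wild type. Without replicate 2 the differences were 0.02 for PORC, -0.08 for CHLH, 0.13 for GUN4, -0.12 for PORA, -0.01 for PORB and 0.09 for HEMA1, the gene of glutamyl-tRNA reductase that opens the pathway. HYH, the partner of HY5, had 4.58, 5.99 and 4.21 in the mutant, against 3.44, 4.24 and 4.13 in wild type (0.99 ± 0.32, limma adjusted p = 0.106, and 0.46 without replicate 2), with a wild-type mean that 4.98 percent of probe sets undercut.

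Photosystem and electron transport genes had a median of 0.26, and 0.05 without replicate 2, with 0 of 28 past the threshold. Their summed linear intensity was 33990 to 58436 in the mutant arrays, the highest in replicate 2, and 34343 to 36761 in wild type. Antenna genes had medians of 0.16 and -0.09 and Calvin-Benson genes of 0.22 and -0.01 in the fits with all arrays and without replicate 2, with 0 of 13 and 0 of 14 past the threshold. Abscisic acid and dehydration genes went the opposite way, at -0.16 with all arrays and 0.02 without replicate 2, with 0 of 13 calls.

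**Figure D3:**
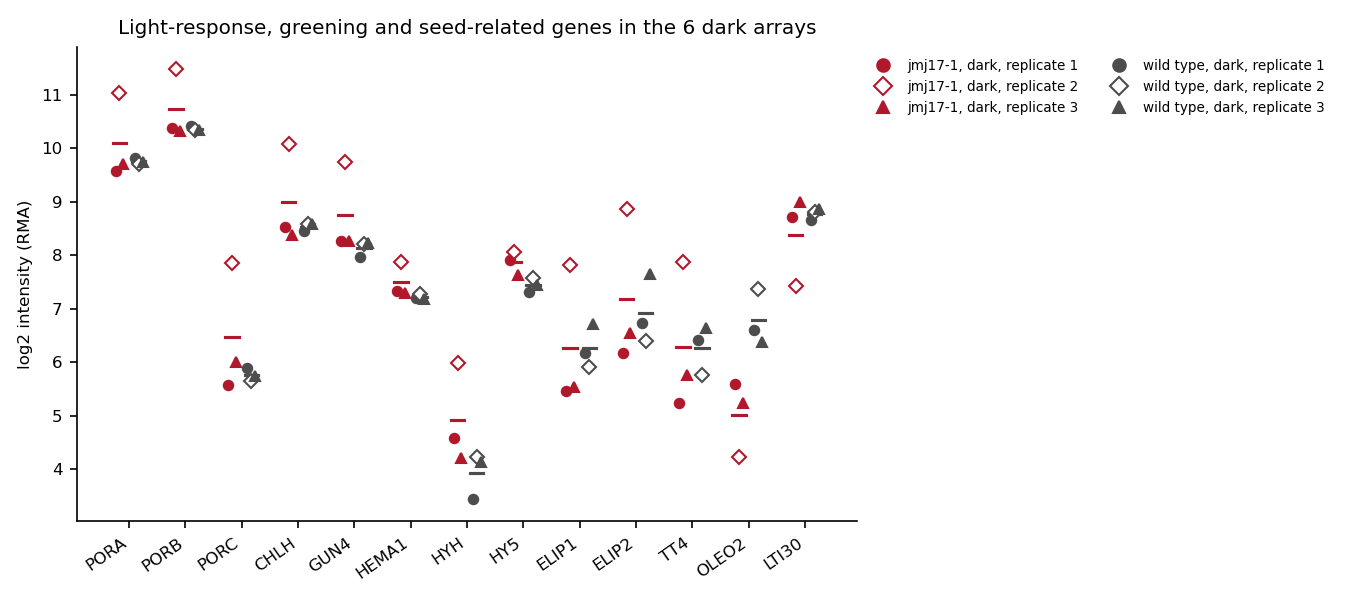
Log2 RMA intensity of 13 genes in the dark arrays, jmj17-1 in red left of wild type in grey. Each symbol is 1 array, open diamonds are replicate 2 of either genotype, and bars are means of 3 arrays. Mutant replicate 2 is the highest of the 6 arrays for PORA, PORB, PORC, CHLH, GUN4, HEMA1, HYH, HY5, ELIP1, ELIP2 and TT4 and the lowest for OLEO2 and LTI30.

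The deviation of mutant replicate 2 from the mean of replicates 1 and 3 exceeded 0.5 for 460 probe sets and was under -0.5 for 200. For each other dark array, set against the remaining arrays of its group, 15 to 59 probe sets exceeded 0.5. Under -0.5 there were 154 for mutant replicate 1 and 211 for mutant replicate 3, whose comparison mean holds replicate 2, and 9 to 37 for the wild-type arrays. The highest values were in genes that light induces in wild type. ELIP2, an early light-induced protein gene, had 6.18, 8.86 and 6.54 in jmj17-1, against 6.73, 6.40 and 7.65 in wild type. TT4, for chalcone synthase, had 5.24, 7.87 and 5.76 in jmj17-1, against 6.42, 5.77 and 6.64 in wild type. The groups overlapped in both genes, and the difference was 0.27 for ELIP2 and 0.01 for TT4, and turned to -0.57 and -0.78 without replicate 2, with 0 of these past the threshold. ELIP1, PnsB3, of the plastid NDH complex, and AT5G48490 completed the top 6 with PORC, at deviations of 2.32, 2.16, 2.28 and 2.07.

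In wild type, the 460 probe sets high in replicate 2 differed by a median of 1.54 at 2 h and 2.34 at 8 h of light against dark. Higher in light were 393 and 395 of them, or 85.4 and 85.9 percent. The median of all probe sets was -0.21 at 2 h and -0.20 at 8 h, and 43.5 and 40.4 percent of them were higher in light. Over the 6847 probe sets the deviation and the wild-type light response correlated at 0.25 for 2 h and 0.39 for 8 h. These values are across genes of the same arrays, and genes are not independent replicates. The 200 probe sets low in replicate 2 had median wild-type responses of 0.81 at 2 h and 0.20 at 8 h. Among them 159 and 116 were higher in light, or 79.5 and 58.0 percent, also above the share of all probe sets. PORA and PORB were high in replicate 2 but lower in wild type after 2 h of light, by -2.47 and -1.38. Whether that array's seedlings met light, or differed in another way, was not tested.

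**Figure D4:**
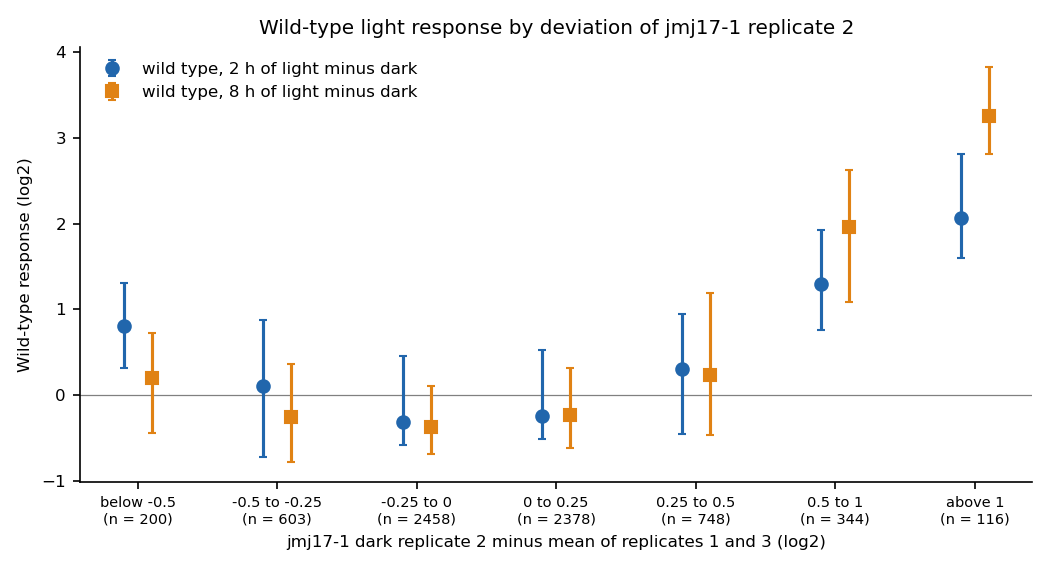
Wild-type light response (log2, light minus dark) of probe sets grouped by how far jmj17-1 dark replicate 2 departed from the mean of replicates 1 and 3 (log2). Points are medians at 2 h (blue circles) and 8 h (orange squares), bars are quartiles, and n is the number of probe sets. Above a deviation of 1 the medians are 2.07 at 2 h and 3.25 at 8 h.

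The lowest deviations were in LTI30, a dehydrin gene (8.71, 7.42 and 9.0 in the mutant, against 8.66, 8.81 and 8.86 in wild type), and OLEO2, an oil body gene of seeds. OLEO2 had 5.59, 4.23 and 5.25 in jmj17-1, against 6.6, 7.37 and 6.39 in wild type. It fell by 1.76 ± 0.37 (limma adjusted p = 0.0317), and not without replicate 2 (-1.36, adjusted p = 0.0841), although the mutant arrays were all under the wild-type arrays. Of 4 measured seed storage and oil body genes, from 23 listed, it was the single call, where 1.18 percent of all probe sets fell. OLEO3 was at 0.43 ± 0.11, and 0.28 without replicate 2. Root markers summed to 3816 to 4117 in the mutant and 3885 to 4095 in wild type (7 genes, linear intensity), and the dividing cell markers, 2 genes, to 354 to 415 in the mutant and 421 to 442 in wild type; their part in the results was not tested.

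Some genes passed only once replicate 2 was left out, 1 rise and 7 falls. AZI1, a gene of systemic defence priming, had 10.35, 10.89 and 10.59 in jmj17-1, against 11.06, 10.90 and 11.22 in wild type, and its difference was -0.45 with all arrays and -0.59 without replicate 2 (limma adjusted p = 0.0694 and 0.0126). OMR1, for threonine deaminase of isoleucine synthesis, was at -0.38 and -0.55 (limma adjusted p = 0.098 and 0.00921). In both genes replicate 2 was the mutant array nearest to wild type. RBL5, a rhomboid-like gene, was the rise, at 0.45 and 0.60 (limma adjusted p = 0.0692 and 0.0126).

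The light arrays are other samples, so they show whether a dark difference was also present after light. Each probe set has 1 spread pooled over all times, so passing in light is not independent of passing in the dark. Of the 81 probe sets that fell in the dark, 76 were lower in the mutant at 2 h, 67 at 4 h and 43 at 8 h, or 93.8, 82.7 and 53.1 percent. Of all probe sets 58.0, 53.4 and 50.8 percent were lower at these times. At 2 h 38 of the 81 passed as lower, where 4.29 percent of all probe sets did; 19 did so at 4 h (1.85 percent of all) and 5 at 8 h (0.482 percent of all). Of the 42 rises, 30, 28 and 16 were higher in the mutant at 2, 4 and 8 h, and 2, 1 and 1 passed as higher, where 0.979, 0.862 and 0.789 percent of all probe sets did. The 41 falls called without replicate 2 were lower in 40, 35 and 25 cases and passed as lower in 25, 14 and 4. The 8 rises called without it were higher in 7, 5 and 6 cases and passed as higher in 1, 1 and 1.

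**Figure D5:**
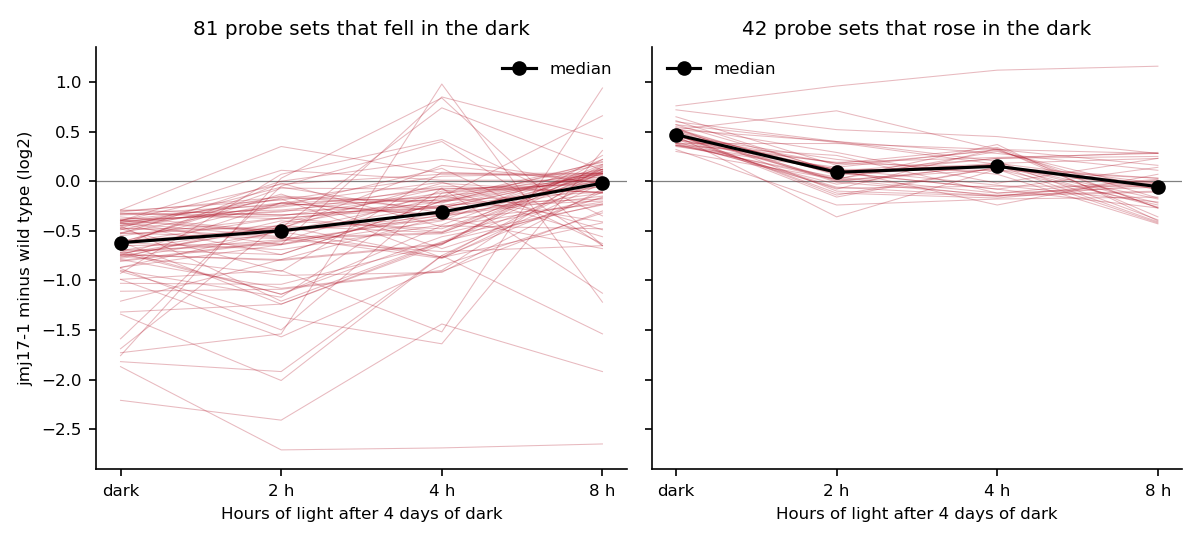
Log2 difference, jmj17-1 minus wild type, at each time for the probe sets that fell (left) and rose (right) in the dark with all arrays. Thin lines are single probe sets and black points their medians. From dark to 8 h, the median of the falls is -0.62, -0.50, -0.31 and -0.02, and that of the rises is 0.47, 0.09, 0.15 and -0.05.

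AT4G36430, AT1G50410 and AT5G26270 passed with the same sign in the dark and at all light times. So did the probe set of AT2G18140 and AT2G18150, whose light differences were -1.92, -0.75 and -1.54 at 2, 4 and 8 h. For several other dark falls the mutant and wild type lay closer at 8 h. Over dark, 2, 4 and 8 h, JAZ10 was at -1.21, -0.79, -0.36 and -0.05. cwINV6 was at -1.03, -1.04, -0.63 and 0.12, and MDHAR at -1.32, -1.24, -0.64 and 0.26 over the same times. ECS1 differed in the dark and not detectably later, at -1.69, -0.42, -0.07 and -0.11. From dark to 8 h the wild-type mean changed by -0.71 for JAZ10, -1.67 for cwINV6, -1.41 for MDHAR and 2.32 for ECS1. Mutant means went from 5.43 to 5.87, 5.11 to 4.59, 4.98 to 5.16 and 7.28 to 11.19, in that order of genes.

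The change of the genotype difference between dark and light was itself tested. Of the 81 falls 15 passed that interaction at 8 h, and of the 42 rises 11, where 78 of 6847 probe sets, 1.14 percent, did. At 2 h and at 4 h 7 of all probe sets passed (0.102 percent), of which 1 and 4 were dark calls. Without replicate 2, 16 of the 41 falls and 1 of the 8 rises passed at 8 h, where 88 of 6847 probe sets did. The dark arrays enter both the calls and the interaction, so these counts are not independent of how the calls were made. GSTU12 (1.37 ± 0.28), MDHAR (1.58 ± 0.26), JAZ10 (1.15 ± 0.18) and cwINV6 (1.15 ± 0.17) each changed at 8 h relative to the dark (limma adjusted p = 0.0334, 0.0189, 0.0165 and 0.0117).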

How the data were processed

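Transcripts of 2 genotypes were measured on 18 arrays in 8 groups, assigned by title. The scanner software was GCOS 1.4, per the submitters' processing notes. The authors used RMA summaries and quantile normalization, per the file headers, and listed probe sets with a moderated t-test (p cut-off 0.05, fold cut-off 1.0; comparison not named). The deposited table gives intensity as linear values for 6847 of 22810 probe sets. Its normalized block and fold change, deposited in log2, were used only as checks. That fold change is headed jmj17-1 against wild type in the dark. In a second deposited file of centred log2 values, 16 of 18 columns equal the array of another title, so it served only as an alternative, each column taken as the array it equals. In the dark comparison 21.9 percent of the listed probe sets had an unadjusted p under 0.05 (limma), against 11.1 percent of the rest, so adjusted p-values are not independent of that selection.

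One model with 1 mean per group was fitted to the log2 intensities of the 18 arrays (R 4.3.3, limma 3.58.1; 10 residual and 4.91 prior degrees of freedom), pooling the spread since light groups hold 2 arrays. The fit without mutant replicate 2 used 17 arrays. On simulated arrays with 100 dark changes of 1 and 100 of 0.5 (log2) among 6847 probe sets, 98 and 77 percent were recovered, with 9 false calls. The simulated spread was independent between probe sets and equal for all arrays, so no simulated array stood apart. These rates therefore do not carry over to the real dark arrays. Summaries were made in Python 3.11.15 with NumPy 2.4.6 and pandas 2.3.3, and figures with matplotlib 3.10.9. No array background was used; a group mean with under 5 percent of probe sets dimmer was named as dim.

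Names were taken from the deposited table and RefSeq, for the 6514 probe sets of 1 locus; 285 name several loci and 48 none. Of 555 loci in 26 lists, 305 were measured, each by its brightest probe set, beside 7 families. Candidates to be named were the 12 largest rises, the 18 largest falls, list members that passed, genes that passed in every fit leaving out an array, light and greening genes, the 6 highest and 6 lowest in mutant replicate 2, and genes that passed only without it. Members, lists and tests were chosen with earlier results of these data known. The peroxidase group was defined by ontology term, and probe sets of several loci were named, after the files were seen. Promoter sequences were not used here. Alternatives were other normalizations, a filter, weights, priors, fewer arrays and a replicate block.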

Additional observations from a re-analysis of the deposited data

Results flagged for a closer look

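The groups in the dark hold 3 arrays, so no array was tested as an outlier. Of the dark calls, 15 falls and 11 rises passed the interaction at 8 h with all arrays, and those listed here are genes chosen for naming that passed it in both fits. For these the genotype difference in light minus that in the dark passed (limma interaction, Benjamini-Hochberg over 6847 probe sets), with all arrays and again without mutant dark replicate 2. At 4 h the change was 2.72 ± 0.47 for AT4G11190 (adjusted p = 0.044, and 0.0127 without replicate 2) and 1.72 ± 0.26 for AT4G17470, for a thioesterase-like protein (adjusted p = 0.0352 and 0.0136). AT4G11190 was at -1.73 in the dark and 0.98 at 4 h, and at -1.22 at 8 h.

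At 8 h the dark falls chosen for naming with such a change were AT2G41730 (1.93 ± 0.32), ECS1 (1.58 ± 0.30), MDHAR (1.58 ± 0.26), GSTU12 (1.37 ± 0.28), AT4G17470 (1.29 ± 0.26), JAZ10 (1.15 ± 0.18), cwINV6 (1.15 ± 0.17) and AT5G35735 (0.83 ± 0.13), with limma adjusted p from 0.0117 to 0.0334. The dark rises chosen for naming were ARF11 (-0.93 ± 0.19, limma adjusted p = 0.0334) and AT2G46420 (-0.81 ± 0.18, limma adjusted p = 0.0468). ARF11 was at 0.52 in the dark and -0.41 at 8 h, the second of which did not pass on its own (limma adjusted p = 0.198).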

How the results depend on the processing

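Counts of calls, 123 with all arrays (42 rose, 81 fell; limma), depended on the settings. Dropping the dimmest 40 percent left 41 (11 and 30), array weights gave 79 (21 and 58), and there were 13 (2 and 11) from the 6 dark arrays alone. Quantile normalization gave 31 and 96, median centring 25 and 107, so falls made up 75.6 and 81.1 percent of the calls, against 65.9 percent. A fit of all probe sets of the second file gave 18 and 86; of these 104, 57 are in the first table, all among the 123. Leaving out each dark array in turn gave 24 to 445 calls (2 to 247 rose, 22 to 198 fell), and rises outnumbered falls without mutant replicate 1 (247 and 198) and without mutant replicate 3 (148 and 116). Without mutant replicate 2 the 49 calls became 48 from the 5 dark arrays alone, 53 after quantile normalization and 78 (12 rose, 66 fell) over the second file, settings added after the data were seen.

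Same-numbered dark arrays of both genotypes deviated together at r = -0.03, -0.03 and 0.15, and those of unlike number at -0.08 to 0.09. With 3 arrays a group, these values cannot show whether same-numbered arrays shared more than a number. With the replicate block the count was 67 (17 and 50), and 8 (0 and 8) from the 6 dark arrays alone.

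Over the fits without 1 dark array, the falls lower at 2, 4 and 8 h made up 87.1 to 100 percent, 74.1 to 100 percent and 43.9 to 68.2 percent, and the rises that were higher 50 to 90.9, 62.5 to 100 and 26.4 to 100 percent. Of 651 pairs of a named called gene and a setting, 431 passed with the same sign, 220 kept the sign without passing and 0 turned. AT4G36430, AT1G50410, MDHAR, JAZ10, cwINV6 and the probe set of AT2G18140 and AT2G18150 passed in each of the 15 settings that held them; the filter removes the dim ones. With 3 arrays a group, precision is limited, and dim probe sets have no established size.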

Other observations

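Over all probe sets of the second file, 47 calls (limma) in the dark comparison lay outside the first table, of which 6 rose and 41 fell; their genes are not named here. Calls of 1 locus were spread over the 5 chromosomes: 30 of 112 lay on chromosome 1, 21 on 2, 13 on 3, 20 on 4 and 28 on 5, or 26.8, 18.8, 11.6, 17.9 and 25 percent, where 26.7, 15.6, 19.6, 14.9 and 23.2 percent of the probe sets of 1 locus lie.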
